A study of Homo sapiens with 12 samples.

Results

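Senescent control cells were compared with growing control cells of the same line. The 4 libraries of this comparison, 2 at day 10 and 2 at day 0, were all those of the scramble hairpin at these days, of 12 libraries in the series. IMR90 is a human lung fibroblast line; the cells used here also carried hTERT, the catalytic subunit of telomerase, and RasERT2, an oncogenic Ras protein kept silent by its receptor domain until tamoxifen is added. Both groups expressed a scramble hairpin RNA (shScr), induced with 0.5 ug/ml doxycycline. The senescent group was collected at day 10 of Ras induction and the growing group at day 0; per the labels, cells received 200 nM tamoxifen or ethanol as its control. Poly(A) RNA was sequenced from stranded libraries. Since both groups carried hTERT, RasERT2, the hairpin and doxycycline, the days differ in Ras induction and in time together, and cells kept for 10 days without Ras induction were not analysed here. The labels do not say whether replicates 1 and 2 were separate cultures or whether the line was 1 clone, so p-values rest only on the spread among these libraries, and this may be technical in part.

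Oncogene-induced senescence is a lasting exit from the cell cycle that follows strong Ras signalling. Cyclin-dependent kinase inhibitors keep the retinoblastoma proteins active, which silences the E2F-driven genes of DNA replication and the genes that assemble and drive mitosis. The cells stay alive, enlarge their secretory and lysosomal compartments, and release the senescence-associated secretory phenotype, a mixture of cytokines, proteases and growth factors.

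Levels are the deposited normalized counts, that is, reads divided by a factor for the library. The day 10 libraries held 24437308 and 29673299 gene-assigned reads, and the day 0 libraries 27086146 and 30127727. A read was worth 1.18 and 1.01 normalized counts at day 10, against 0.919 and 0.8345 at day 0. These factors do not follow depth alone. A small rise in normalized counts at day 10 can therefore go without a rise in the share of reads. A log2 fold change is day 10 over day 0 on log2 of the normalized count plus 1, given with its standard error (SE) from a limma fit over all 12 libraries, and n is 2 libraries per group throughout. A gene is called, and written as having risen or fallen, where its limma p stayed below 0.05 after Benjamini-Hochberg adjustment for all 13924 genes tested. On the first principal component of the 12 libraries, with 68.9% of the variance, the day 10 libraries lay at 90.5 and 89.2, against −73.6 and −74.3 for the day 0 libraries. All 15 fibroblast markers were measured, with a summed level of 811344 and 865621 at day 10, against 627070 and 596326 at day 0. This sum follows FN1, fibronectin, with 433060 and 491240 at day 10, against 143340 and 159390 at day 0. Of the 15 markers 7 fell and 3 rose, with a median log2 fold change of −0.52. Of 14 leukocyte markers 10 stayed under 10 normalized counts in each of the 4 libraries, with TYROBP and CD3E among those at 0. Of 12 epithelial markers 7 stayed under 10, with SFTPC, NKX2-1, SCGB1A1 and KRT5 at 0, and of 12 endothelial markers 3 did, with CDH5 at 0. The other 5 epithelial and 9 endothelial markers reached 10 in at least 1 of the 4 libraries. So did all 10 smooth muscle and pericyte markers. The levels of HRAS, which encodes a Ras protein, were 51791 and 50789 normalized counts at day 10, against 43044 and 43386 at day 0 (limma adjusted p = 0.228, not called). The limma fit of the compared groups alone called HRAS higher (log2 fold change 0.25, adjusted p = 0.0410). The labels do not name the isoform in RasERT2, and gene counts cannot separate a transgene from the cell's own gene.

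Nearly 2 in every 3 genes changed level. Of 13924 genes, 4523 rose (32.5%) and 4356 fell (31.3%), while 5045 did not pass. Changes of 2-fold or more were seen in 2033 genes that rose and 1925 that fell, and changes of 16-fold or more in 212 and 166. The 2 days did not overlap in 84.9% of all genes, so a lack of overlap by itself marks no gene out here. The median log2 fold change over all genes was 0.006, so the list medians given later can be read against a value near 0. Scaling by a library factor itself tends to centre the genes near 0. The changes are thus relative to the other genes of a library, and whether total RNA per cell changed was not tested. With each of the 12 libraries left out in turn, 6508 of the 8879 calls held in every fit. In bulk samples like these, fewer cells that express a gene and less of its RNA per cell cannot be told apart.

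**Figure D1:**
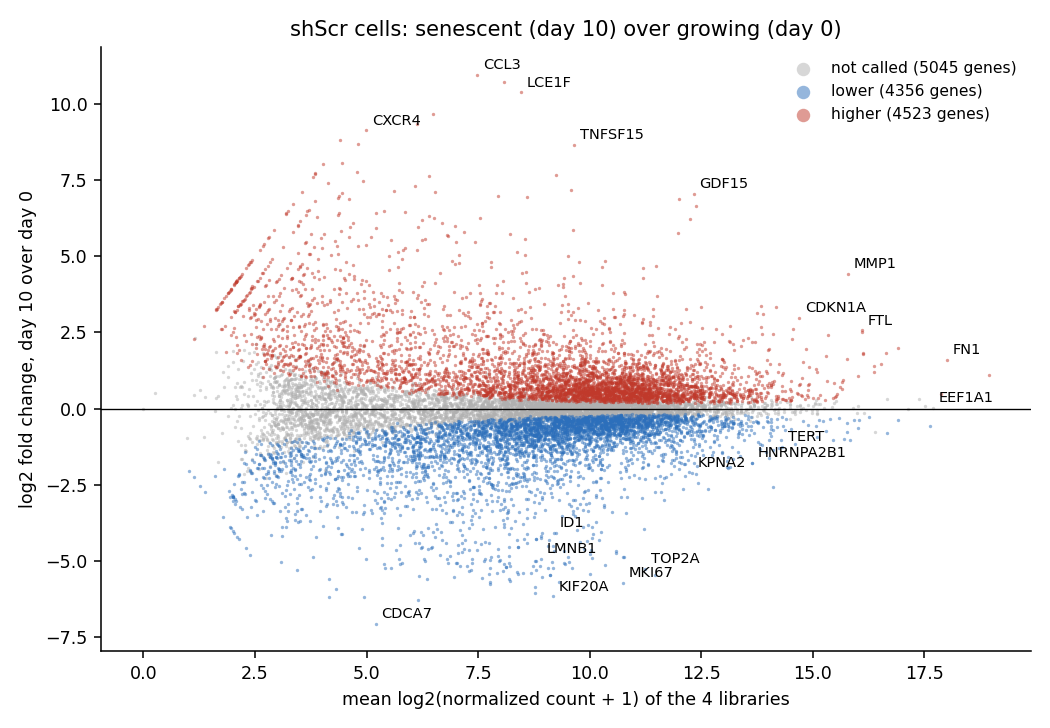
Log2 fold change, day 10 over day 0, in shScr cells (y axis) against the mean log2(normalized count + 1) of the 4 libraries (x axis), with a point per gene; red points rose, blue points fell and grey points were not called. Genes such as LCE1F and CCL3 lie above 10 on the y axis, whereas the lowest point, CDCA7, lies at −7.06.

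The machinery that licenses and fires replication origins fell throughout. All 19 members tested fell, with a median log2 fold change of −3.35. MCM10, which helps to activate the replicative helicase, had 20.1 and 23.3 normalized counts at day 10, against 758 and 747 at day 0. ORC1, the largest subunit of the complex that marks origins, had 29.5 and 25.3 normalized counts at day 10, against 599.9 and 650.1 at day 0. CDC45, which joins the helicase when an origin fires, had 37.8 and 35.4 normalized counts at day 10, against 767 and 799 at day 0. In each of these genes both day 10 libraries lay far below both day 0 libraries, with log2 fold changes of −5.06 ± 0.49, −4.46 ± 0.25 and −4.38 ± 0.25 (limma adjusted p = 5.61e-06, 1.00e-07 and 1.06e-07). GINS1, a subunit of the same helicase, fell by a like amount, with a log2 fold change of −4.72 ± 0.54. The smallest fall in the list was that of DBF4, the activating subunit of the kinase that fires origins, at a log2 fold change of −2.30; it was named after its values were seen. Together the 19 genes took 0.135 and 0.132% of reads on day 0, 0.0320 and 0.0343% on day 4, then 0.0132 and 0.0123% on day 10, so the day 4 shares lay nearer to those of day 10 than to those of day 0.

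Behind the helicase, all 24 genes of the DNA polymerases and the replisome fell, by a median of −2.40 on the log2 scale. The steepest falls were in CLSPN, which links the fork to the checkpoint kinase CHEK1, in POLE2, a subunit of the leading-strand polymerase, and in RFC3 and PRIM1, which belong to the clamp loader and the primase. POLE2 had 8.26 and 8.10 normalized counts at day 10, against 278 and 347 at day 0, a log2 fold change of −5.09 ± 0.29. CLSPN had 46.0 and 44.6 normalized counts at day 10, against 1690 and 1691 at day 0, a log2 fold change of −5.19 ± 0.38 (limma adjusted p = 6.37e-07). Both genes were low in both day 10 libraries, without overlap.

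Of 23 genes of nucleotide synthesis 17 fell and 2 rose (1 without replicate 2 of day 0 or after quantile normalization), with a median of −1.01. TK1, the S-phase thymidine kinase, had 117 and 145 normalized counts at day 10, against 4367 and 4171 at day 0. RRM2, the S-phase subunit of ribonucleotide reductase, had 296 and 335 normalized counts at day 10, against 9285 and 9294 at day 0. Both were low in both day 10 libraries. TYMS, thymidylate synthase, had 194 and 175 normalized counts at day 10, against 1282 and 1163 at day 0. All 3 were lower in both day 10 libraries, by log2 fold changes of −5.03 ± 0.34, −4.88 ± 0.33 and −2.72 ± 0.12 (limma adjusted p = 3.83e-07, 3.54e-07 and 1.90e-08). RRM2B, the stress-induced counterpart of RRM2 that supplies nucleotides for repair, rose instead, with 3934 and 4299 normalized counts at day 10, against 1117 and 1108 at day 0, a log2 fold change of 1.89 ± 0.15; it was named after its values were seen.

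Mitotic lists had lower medians than the replication lists. Of 26 mitotic cyclins and kinases 25 fell (median −4.87), as did all 29 kinetochore and centromere genes (median −4.65) and all 25 tested spindle motor and cytokinesis genes (median −4.98). The kinase list's exception was WEE1, which holds CDK1 inactive before mitosis, with 1068 and 1100 normalized counts at day 10, against 1039 and 973 at day 0; it was named after its values were seen. CDC20, the activator of the ubiquitin ligase that starts anaphase, had 162 and 153 normalized counts at day 10, against 6662 and 6765 at day 0. CCNB1, the mitotic cyclin, had 296 and 309 normalized counts at day 10, against 7527 and 7981 at day 0. CDK1, its kinase, had 76.7 and 64.8 normalized counts at day 10, against 2499 and 2580 at day 0. Day 10 libraries were low and day 0 libraries high without overlap, with log2 fold changes of −5.41 ± 0.33, −4.67 ± 0.25 and −5.15 ± 0.35 (limma adjusted p = 1.70e-07, 6.93e-08 and 3.66e-07).

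At the kinetochore, NDC80, NUF2 and SPC25 encode subunits of the complex that binds microtubules. SPC25 had 7.08 and 7.09 normalized counts at day 10, against 584 and 679 at day 0, a log2 fold change of −6.29 ± 0.58 (limma adjusted p = 3.71e-06). NDC80 had 33.0 and 26.3 normalized counts at day 10, against 1434 and 1714 at day 0. NUF2 had 30.7 and 32.4 normalized counts at day 10, against 1337 and 1456 at day 0. In all 3 the day 10 libraries were lower without overlap. KNL1, the scaffold on which this complex is docked, had 41.3 and 61.8 normalized counts at day 10, against 2019 and 2458 at day 0. Among the motors, KIF20A, a kinesin of the central spindle, had 60.2 and 74.9 normalized counts at day 10, against 4933 and 4782 at day 0, a log2 fold change of −6.16 ± 0.50. CEP55, which recruits the machinery of the final cut between daughter cells, had 53.1 and 52.7 normalized counts at day 10, against 3538 and 3568 at day 0, a log2 fold change of −6.04 ± 0.24 (limma adjusted p = 1.33e-08). Both falls were larger than that of any origin licensing gene.

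Condensins, which compact mitotic chromosomes, and cohesins, which hold sister chromatids together, fell in 17 of 19 genes, with a median of −2.27. NCAPG and NCAPH, subunits of condensin I, had log2 fold changes of −5.51 ± 0.36 and −5.20 ± 0.39. TOP2A, the topoisomerase that untangles chromosomes, had 354 and 441 normalized counts at day 10, against 14683 and 15281 at day 0, a log2 fold change of −5.24 ± 0.28 (limma adjusted p = 7.09e-08). The spindle and cytokinesis genes together took 0.429 and 0.441% of reads on day 0, 0.107 and 0.102% on day 4, then 0.0153 and 0.0163% on day 10. The kinetochore genes took 0.186 and 0.203% of reads on day 0, 0.0520 and 0.0512% on day 4, then 0.00831 and 0.00880% on day 10. Read shares of both lists were thus lowest in the 2 day 10 libraries and intermediate in the 2 day 4 libraries.

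Since these genes moved together, their promoters were searched for short motifs known from cell cycle genes, in the 250 bases before and 50 bases after the start, on both strands and with overlapping matches allowed (RefSeq, GRCh38.p14, first listed start per gene). A promoter was found for 11012 of the 13924 genes tested. The CHR motif, TTTGAA, stood in 19 of 23 promoters of the spindle list (82.6%), 13 of 22 of the kinetochore list (59.1%) and 9 of 19 of the mitotic kinase list (47.4%). It stood in 9.83% of the promoters of all genes tested and in 15.4% of all 27305 promoters of the reference. The CCAAT box, CCAAT, stood in 18 of the same 23 spindle promoters (78.3%), 16 of 22 kinetochore promoters (72.7%) and 12 of 19 mitotic kinase promoters (63.2%), against 36.3% of the genes tested and 35.7% of all promoters. An E2F-type motif, TTTCCCGC, TTTGGCGC or TTTCGCGC, stood in 9 of 16 origin licensing promoters (56.2%), 8 of 21 replisome promoters (38.1%) and 4 of 12 promoters of the E2F and G1/S list (33.3%), against 4.52% of the genes tested and 2.79% of all promoters. Over all 562 promoters of genes that fell by 4-fold or more, 24.9% held CHR, 50.2% a CCAAT box and 10.9% an E2F-type motif. In the 618 promoters of genes that rose by 4-fold or more the shares were 9.22%, 33.2% and 1.78%. A match describes the letters of the window and does not show a bound site.

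The upstream 250 bases are printed for the member of each mitotic list with the largest change that holds both CHR and CCAAT, and for the 2 origin licensing genes with the largest change that hold an E2F-type motif; matches on either strand are in capitals, 5′ to 3′ on the gene's strand. GINS2 and MCM6 were named for this motif after their values were seen. The first 3 genes are CEP55 (chr10:93496362-93496611, plus strand), SPC25 (chr2:168890431-168890680, minus strand) and CDC20 (chr1:43358731-43358980, plus strand), with CHR and CCAAT in capitals. GINS2 (chr16:85688955-85689204, minus strand), a helicase subunit with a log2 fold change of −4.37 ± 0.23, and MCM6 (chr2:135876444-135876693, minus strand), a subunit of the helicase ring with a log2 fold change of −4.09 ± 0.35, show the E2F-type motif, and MCM6 holds it in 2 pairs of overlapping matches on opposite strands.
CEP55: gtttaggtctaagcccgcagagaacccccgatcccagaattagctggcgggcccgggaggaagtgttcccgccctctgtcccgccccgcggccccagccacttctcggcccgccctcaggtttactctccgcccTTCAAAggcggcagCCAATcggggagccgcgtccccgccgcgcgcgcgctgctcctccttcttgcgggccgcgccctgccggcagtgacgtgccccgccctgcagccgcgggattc
SPC25: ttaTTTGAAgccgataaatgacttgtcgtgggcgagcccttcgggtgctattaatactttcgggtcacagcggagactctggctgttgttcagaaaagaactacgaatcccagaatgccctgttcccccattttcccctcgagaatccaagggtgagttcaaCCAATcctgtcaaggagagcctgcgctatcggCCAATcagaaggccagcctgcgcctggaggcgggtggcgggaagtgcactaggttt
CDC20: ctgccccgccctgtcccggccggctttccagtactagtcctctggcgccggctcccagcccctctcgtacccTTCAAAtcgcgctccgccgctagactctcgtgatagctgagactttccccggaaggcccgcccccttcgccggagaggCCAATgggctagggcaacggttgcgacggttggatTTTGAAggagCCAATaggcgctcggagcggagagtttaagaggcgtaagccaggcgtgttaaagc
GINS2: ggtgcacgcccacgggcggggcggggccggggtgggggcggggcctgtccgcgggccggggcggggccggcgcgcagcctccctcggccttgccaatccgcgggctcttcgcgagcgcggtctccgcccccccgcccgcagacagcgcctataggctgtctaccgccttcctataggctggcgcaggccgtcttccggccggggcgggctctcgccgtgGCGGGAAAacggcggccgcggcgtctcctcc
MCM6: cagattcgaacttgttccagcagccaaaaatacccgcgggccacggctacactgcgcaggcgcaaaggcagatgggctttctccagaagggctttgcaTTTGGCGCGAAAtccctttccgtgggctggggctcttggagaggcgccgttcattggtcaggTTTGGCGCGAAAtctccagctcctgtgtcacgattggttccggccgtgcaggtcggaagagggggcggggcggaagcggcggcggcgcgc

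Repair genes that act on replicating DNA were lower too. Of 24 genes of homologous recombination and the Fanconi pathway 23 fell, with a median of −3.79. EXO1, which resects broken ends, had 17.7 and 19.2 normalized counts at day 10, against 657 and 653 at day 0. FANCD2, the protein that is loaded at cross-links, had 40.1 and 40.5 normalized counts at day 10, against 1167 and 1222 at day 0. BLM, a helicase that dissolves recombination intermediates, had 16.5 and 19.2 normalized counts at day 10, against 520.0 and 529.9 at day 0. All were lower at day 10 without overlap, with log2 fold changes of −5.08 ± 0.35, −4.85 ± 0.46 and −4.80 ± 0.34 (limma adjusted p = 4.43e-07, 4.61e-06 and 5.59e-07). The sensors and checkpoint kinases of DNA damage had a median nearer 0, with 16 of 20 lower, 2 higher and a median of −0.72. CHEK1, the kinase of the replication checkpoint, had 186 and 202 normalized counts at day 10, against 1279 and 1346 at day 0, a log2 fold change of −2.75 ± 0.15. The 2 higher calls of that list became 0 without replicate 1 of day 0 or replicate 2 of day 10.

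Chromatin assembly and the nuclear envelope were also lower. Of 19 histone chaperones and variants 15 fell and 1 rose (3 without either shIL1R day 10 library), with a median of −1.84. ASF1B, a chaperone that hands new histones to replicating DNA, had 30.7 and 38.5 normalized counts at day 10, against 1136 and 1098 at day 0, a log2 fold change of −4.98 ± 0.42. CHAF1B, a subunit of chromatin assembly factor 1, had 38.9 and 23.3 normalized counts at day 10, against 765 and 795 at day 0, a log2 fold change of −4.65 ± 0.34. Of 26 HMG, Polycomb and DNA methylation genes 15 fell and 5 rose. EZH2, the Polycomb methyltransferase, had 93.2 and 61.8 normalized counts at day 10, against 1213 and 1122 at day 0. UHRF1, which keeps DNA methylation through replication, had 295 and 309.9 normalized counts at day 10, against 5152 and 4788 at day 0. Both were lower at day 10 without overlap, with log2 fold changes of −3.92 ± 0.18 and −4.03 ± 0.30 (limma adjusted p = 2.50e-08 and 6.99e-07). Of 16 lamina and envelope genes 11 fell and 2 rose, the 2 becoming 0 without replicate 2 of day 0 and 1 without replicate 2 of day 10. LMNB1, the lamin whose loss is a textbook mark of senescence, had 82.6 and 90.1 normalized counts at day 10, against 2768 and 2561 at day 0, a log2 fold change of −4.93 ± 0.41 (limma adjusted p = 1.76e-06). TMPO, an inner membrane protein that binds lamins, had 333 and 289.6 normalized counts at day 10, against 4096 and 4121 at day 0. LBR, which anchors heterochromatin, had 281 and 245 normalized counts at day 10, against 1590 and 1557 at day 0. TMPO and LBR were lower in both day 10 libraries, with log2 fold changes of −3.72 ± 0.17 and −2.58 ± 0.22.

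TERT, which these cells carry as a transgene, had 13496 and 12854 normalized counts at day 10, against 32544 and 30773 at day 0, a log2 fold change of −1.26 ± 0.11 (limma adjusted p = 1.91e-06). Both day 10 libraries lay below both day 0 libraries, and how much of this is the transgene was not tested. Of 8 telomerase and shelterin genes 5 fell and 2 rose (1 without replicate 1 of day 0). POT1, which caps the single-stranded end, had a log2 fold change of −1.35 ± 0.13, and TERF2IP, a shelterin subunit, of 0.89 ± 0.13.

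The brakes on the cycle were split. Of 10 CDK inhibitors and RB family genes 4 rose and 5 fell. CDKN1A, which encodes the inhibitor p21, had 69197 and 79731 normalized counts at day 10, against 10016 and 8866 at day 0. CDKN2A, which encodes p16 and ARF, had 583 and 619 normalized counts at day 10, against 113 and 114 at day 0. CDKN2B, which encodes p15, had 1998 and 1486 normalized counts at day 10, against 119 and 105 at day 0. These were higher in both day 10 libraries, with log2 fold changes of 2.98 ± 0.24, 2.39 ± 0.12 and 3.93 ± 0.18 (limma adjusted p = 1.22e-06, 5.36e-08 and 2.38e-08). CDKN2C, a further member of the p16 family, went the other way with 51.9 and 40.5 normalized counts at day 10, against 998 and 965 at day 0, a log2 fold change of −4.39 ± 0.36. RBL1, which encodes the RB relative p107, fell, with 87.3 and 90.1 normalized counts at day 10, against 1142 and 1152 at day 0. RB1 had 1328 and 1496 normalized counts at day 10, against 2404 and 2504 at day 0. RBL1 and RB1 were lower in both day 10 libraries, with log2 fold changes of −3.68 ± 0.15 and −0.80 ± 0.16.

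Of 18 E2F factors and G1/S cyclins 11 fell and 5 rose (3 after quantile normalization). E2F1 had 217 and 212 normalized counts at day 10, against 1504 and 1413 at day 0, a log2 fold change of −2.76 ± 0.20. The day 10 libraries held 1 read each of E2F8, an atypical E2F that represses the others, which had 1.18 and 1.01 normalized counts at day 10, against 161 and 140.2 at day 0. CCNE2, a G1/S cyclin, had 23.6 and 23.3 normalized counts at day 10, against 362 and 386 at day 0, a log2 fold change of −3.94 ± 0.33. By contrast CCND2, a D-type cyclin that mitogens induce, had 1342 and 2213 normalized counts at day 10, against 251 and 237 at day 0, a log2 fold change of 2.82 ± 0.22. CCND2 was named after its values were seen. PLK3, a stress-responsive kinase, had 5604 and 6262 normalized counts at day 10, against 727 and 676 at day 0. BTG2, an antiproliferative gene, had 601 and 609.7 normalized counts at day 10, against 87.3 and 65.9 at day 0. PLK3 and BTG2 were higher in both day 10 libraries, with log2 fold changes of 3.08 ± 0.41 and 2.98 ± 0.30. BBC3, the death protein PUMA, had 791 and 673 normalized counts at day 10, against 124 and 126 at day 0, a log2 fold change of 2.54 ± 0.22.

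**Figure D2:**
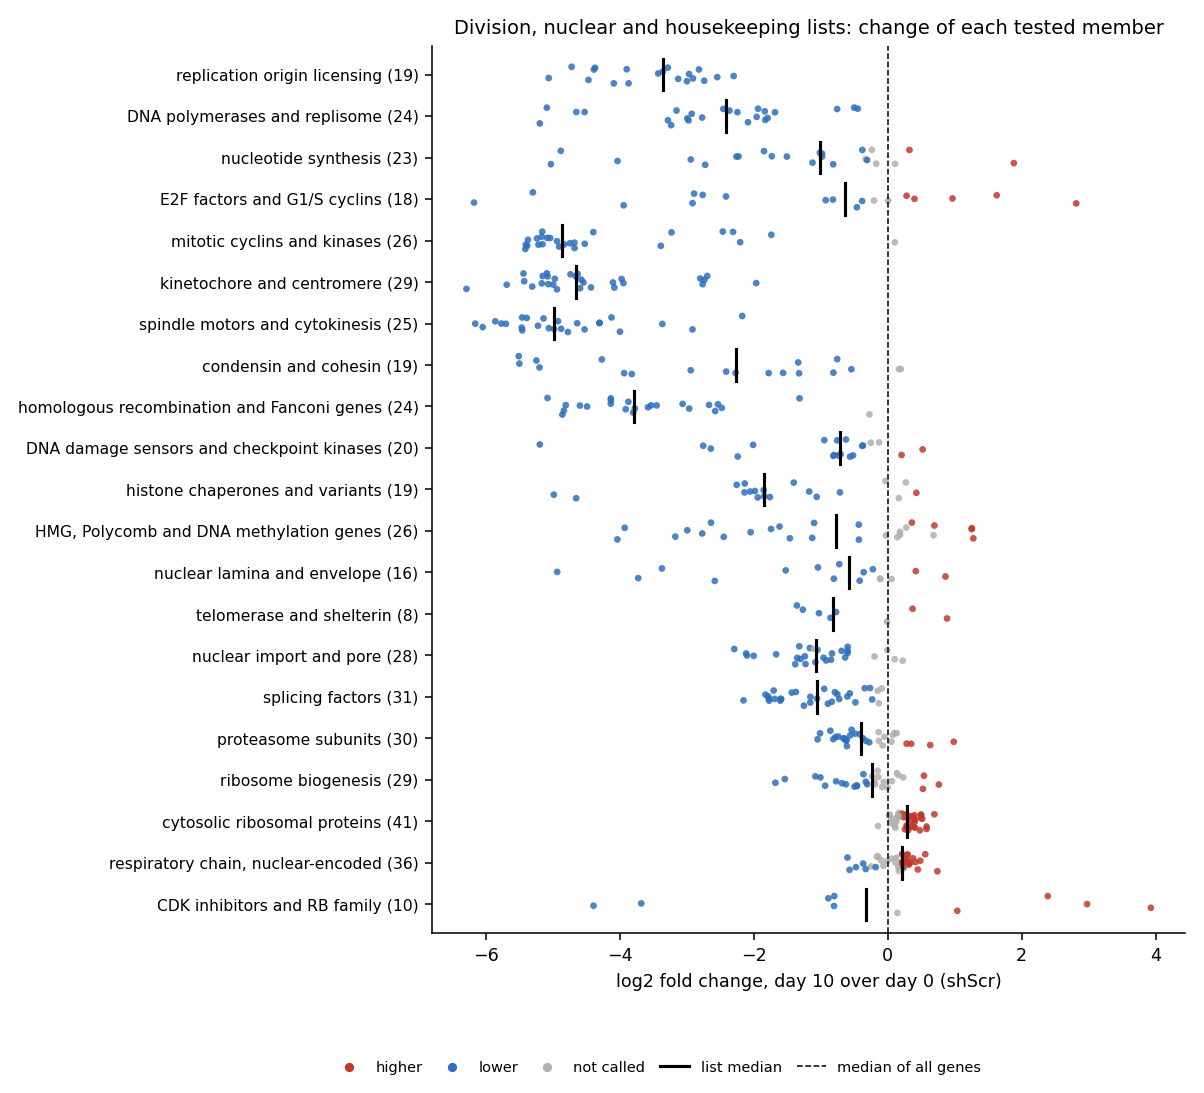
Log2 fold change, day 10 over day 0 in shScr cells (x axis), of each tested member (points) of 21 lists, with the number tested in brackets; red members rose, blue fell and grey were not called. The black bars are list medians, which lie between −4.98 and −4.65 for the 3 mitotic lists, at −1.05 and −1.06 for splicing and nuclear import and at 0.28 for ribosomal proteins; the dashed line is the median of all genes.

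Outside the cycle, most splicing factors and most genes of nuclear import and the pore fell. Of 31 splicing factors 28 fell and 0 rose, with a median of −1.05 against 0.006 for all genes. HNRNPM, a splicing regulator, had 1770 and 1648 normalized counts at day 10, against 7664 and 7507 at day 0. SRSF3, the smallest of the SR proteins, had 1961 and 1954 normalized counts at day 10, against 6605 and 6864 at day 0. HNRNPA2B1, an abundant nuclear RNA-binding protein, had 6799 and 6960 normalized counts at day 10, against 23475 and 23528 at day 0. Both day 10 libraries were lower in each, with log2 fold changes of −2.15 ± 0.19, −1.78 ± 0.07 and −1.77 ± 0.12 (limma adjusted p = 2.53e-06, 1.21e-08 and 3.25e-07). Of 28 genes of nuclear import and the nuclear pore 23 fell and 0 rose (1 without either shIL1R day 10 library), with a median of −1.06. KPNA2, an importin that carries cargo through the pore, had 2397 and 2417 normalized counts at day 10, against 10193 and 10442 at day 0, a log2 fold change of −2.10 ± 0.07 (limma adjusted p = 7.54e-09). NUP107, part of the pore's scaffold, had 518 and 542 normalized counts at day 10, against 2130 and 2112 at day 0. NUP35 had 95.6 and 97.2 normalized counts at day 10, against 454 and 497 at day 0. NUP107 and NUP35 were lower in both day 10 libraries, with log2 fold changes of −2.00 ± 0.09 and −2.29 ± 0.13. The list medians for splicing and import lay between those of the mitotic lists and that of all genes.

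Protein turnover and ribosomes changed by small amounts. Of 30 proteasome subunits 18 fell and 4 rose (2 after quantile normalization), with a median of −0.39. PSMB2, a core subunit, had 2084 and 2206 normalized counts at day 10, against 4352 and 4497 at day 0. PSMC3, an ATPase of the cap, had 3534 and 3389 normalized counts at day 10, against 6748 and 7173 at day 0. PSMB2 and PSMC3 were lower in both day 10 libraries, with log2 fold changes of −1.04 ± 0.07 and −1.01 ± 0.07. PSMB10, a subunit of the immunoproteasome, had 812 and 668 normalized counts at day 10, against 364 and 378 at day 0, a log2 fold change of 0.99 ± 0.12. The constitutive and the inducible subunit named here thus moved in opposite directions. Of 29 ribosome biogenesis genes 14 fell and 3 rose. RRS1, an assembly factor, had 468 and 421 normalized counts at day 10, against 1389 and 1452 at day 0. NOP56, a core protein of the particles that methylate rRNA, had 1421 and 1258 normalized counts at day 10, against 2839 and 2807 at day 0. RRS1 and NOP56 were lower in both day 10 libraries, with log2 fold changes of −1.67 ± 0.16 and −1.08 ± 0.09. Of 41 cytosolic ribosomal proteins 26 rose and 0 fell, but only 15 rose without replicate 1 of day 0 or replicate 1 of day 10. Quantile normalization gave 8 higher and 3 lower. As shares, the list took 2.705 and 2.402% of reads at day 10, against 2.441 and 2.515% at day 0, so the days overlapped. RPS19 had 21963 and 19920 normalized counts at day 10, against 12846 and 12935 at day 0, a log2 fold change of 0.70 ± 0.10. The ribosomal precursor RNA45S5, which poly(A) selection should leave out, took 2.52 and 2.51% of reads at day 10, against 1.34 and 1.42% at day 0, and its part in these small shifts was not tested. Of 36 nuclear-encoded respiratory genes 18 rose and 6 fell. Yet their share of reads was lower in both day 10 libraries, at 0.4008 and 0.3943%, against 0.4312 and 0.4459% at day 0. The 18 became 6 without replicate 1 of day 0, 11 without replicate 1 of day 10, 7 without replicate 2 of day 10 and 11 after quantile normalization, which also called 10 lower.

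Secreted signals had the highest medians of the lists described here. Of 22 chemokines and 22 interleukins and colony-stimulating factors listed, 14 and 18 were tested. A gene silent at day 0 was tested only where other libraries reached 10 normalized counts. The filter thus favours members that rose, and the counts and medians leave out the listed members not tested. Of 14 chemokines tested 10 rose and 1 fell (2 without either shIL1R day 10 library), with a median of 4.97, and of 18 interleukins and colony-stimulating factors 16 rose and 1 fell, with a median of 3.62. CXCL8, which attracts neutrophils, had 38965 and 44346 normalized counts at day 10, against 475 and 666 at day 0. CSF2, a growth factor of the myeloid lineage, had 8296 and 9083 normalized counts at day 10, against 33.1 and 52.6 at day 0. CSF3, which drives neutrophil production, had 1790 and 1735 normalized counts at day 10, against 1.84 and 1.67 at day 0. Levels were high in both day 10 libraries and low in both day 0 libraries, with log2 fold changes of 6.21 ± 0.66, 7.67 ± 0.70 and 9.32 ± 0.66 (limma adjusted p = 1.11e-05, 3.32e-06 and 5.33e-07). CCL20, which attracts cells with the receptor CCR6, had 345 and 569 normalized counts at day 10, against 0 and 0 at day 0, at least 166-fold higher at day 10 if day 0 is set to the floor of 3 reads per library. CXCL12, a homeostatic chemokine, fell, with 0 and 12.2 normalized counts at day 10, against 239 and 289.6 at day 0, a log2 fold change of −6.19 ± 0.83. CXCR4, the receptor of CXCL12, had 618 and 913 normalized counts at day 10, against 0 and 0.835 at day 0, where the day 0 level rests on 1 read. Of 20 TNF superfamily genes 12 rose and 1 fell. TNFSF15, a ligand that costimulates T cells, had 14229 and 17970 normalized counts at day 10, against 40.4 and 37.6 at day 0, a log2 fold change of 8.64 ± 0.32 (limma adjusted p = 9.20e-09).

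A kappaB-type motif, GGANTTTCC, stood in 7 of 12 chemokine promoters (58.3%), 2 of 13 interleukin promoters (15.4%) and 6 of 21 promoters of the NF-kB list (28.6%), against 1.67% of the genes tested and 1.64% of all promoters. Of the promoters of genes that rose by 4-fold or more 3.40% held it. The upstream 250 bases of the 2 chemokines with the largest change that hold it are shown with the match in capitals, as above. They are CXCL5 (chr4:73998678-73998927, minus strand), a relative of CXCL8 with 1972 and 3864 normalized counts at day 10, against 19.3 and 22.5 at day 0, and CXCL8 (chr4:73740319-73740568, plus strand).
CXCL5: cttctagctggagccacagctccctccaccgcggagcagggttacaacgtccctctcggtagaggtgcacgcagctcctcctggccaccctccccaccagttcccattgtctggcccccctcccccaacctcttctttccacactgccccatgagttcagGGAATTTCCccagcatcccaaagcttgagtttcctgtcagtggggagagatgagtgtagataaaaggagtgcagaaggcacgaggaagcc
CXCL8: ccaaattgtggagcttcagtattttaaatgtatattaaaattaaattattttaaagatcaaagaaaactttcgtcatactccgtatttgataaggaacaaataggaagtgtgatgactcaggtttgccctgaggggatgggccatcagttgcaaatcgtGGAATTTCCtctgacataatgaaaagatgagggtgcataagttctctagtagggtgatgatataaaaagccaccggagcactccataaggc

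NF-kB genes themselves rose in 17 of 23 cases and fell in 1. ICAM1, an adhesion receptor for leukocytes, had 26921 and 32518 normalized counts at day 10, against 627 and 487 at day 0. BCL2A1, a survival protein, had 758 and 848 normalized counts at day 10, against 9.19 and 24.2 at day 0. TNFAIP3, which shuts NF-kB signalling down, had 2437 and 2968 normalized counts at day 10, against 293 and 254 at day 0. The 3 were higher in both day 10 libraries, with log2 fold changes of 5.74 ± 0.47, 5.65 ± 0.46 and 3.30 ± 0.68 (limma adjusted p = 1.50e-06, 1.46e-06 and 0.0014).

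Most proteases of the matrix and most serpins rose. Of 20 matrix metalloproteinases and inhibitors 13 rose and 3 fell (1 without replicate 1 of day 10), and of 21 genes of the plasminogen system and serpins 18 rose and 3 fell. MMP3, stromelysin, had 40035 and 48905 normalized counts at day 10, against 376 and 379 at day 0, a log2 fold change of 6.87 ± 0.37 (limma adjusted p = 7.42e-08). MMP9, a gelatinase, had 33.0 and 70.9 normalized counts at day 10, against 0 and 0 at day 0, at least 18.9-fold higher with the same floor. Both proteases were higher in both day 10 libraries. SERPINB2, an inhibitor of plasminogen activators, had 41400 and 53186 normalized counts at day 10, against 3894 and 5453 at day 0. THBD, thrombomodulin, had 1061 and 1247 normalized counts at day 10, against 23.0 and 27.5 at day 0. SERPINB2 and THBD were higher in both day 10 libraries, with log2 fold changes of 3.35 ± 0.38 and 5.46 ± 0.53. All 4 lay higher at day 10 without overlap. The AP-1 motif, TGAGTCA, stood in 1 of 11 promoters of the metalloproteinase list (9.09%), 3 of 16 of the plasminogen and serpin list (18.8%) and 1 of 7 of the EGF family (14.3%), against 3.26% of the genes tested and 4.92% of all promoters. Genes that rose by 4-fold or more held it in 7.77% of promoters and genes that fell by 4-fold or more in 2.49%.

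Several EGF family and IGF axis genes rose. Of 9 EGF family genes 6 rose and 2 fell, and of 17 genes of the IGF axis 10 rose and 2 fell (0 without replicate 1 of day 0 or replicate 2 of day 10, and 1 without replicate 2 of day 0). NRG1, neuregulin, had 4418 and 5870 normalized counts at day 10, against 308 and 298 at day 0. EREG, epiregulin, had 2000 and 2298 normalized counts at day 10, against 181 and 228 at day 0. NRG1 and EREG were higher in both day 10 libraries, with log2 fold changes of 4.07 ± 0.13 and 3.39 ± 0.29 (limma adjusted p = 5.93e-09 and 1.74e-06). PAPPA, a protease that cleaves IGF-binding proteins, had 5551 and 5292 normalized counts at day 10, against 376 and 412 at day 0. IGFBP4, its substrate, had 51330 and 53182 normalized counts at day 10, against 11192 and 10153 at day 0. PAPPA and IGFBP4 were higher in both day 10 libraries, with log2 fold changes of 3.78 ± 0.14 and 2.29 ± 0.10. The TGF-beta, BMP and activin list, of ligands and antagonists, was split, with 9 of 24 higher and 5 lower (3 without replicate 1 of day 10) and a median of 0.23; its share of higher members was near that of all genes tested (32.5%). BMP2 had 10541 and 10208 normalized counts at day 10, against 856 and 763 at day 0. GDF15, a stress-induced relative, had 60122 and 57776 normalized counts at day 10, against 521 and 385 at day 0. BMP2 and GDF15 were higher in both day 10 libraries, with log2 fold changes of 3.68 ± 0.18 and 7.04 ± 0.46. The lowest change of the list was that of BMP5, a further ligand, with 1.18 and 0 normalized counts at day 10, against 15.6 and 16.7 at day 0; it was named after its values were seen.

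All 4 ID genes, which encode inhibitors of bHLH factors and are classic BMP targets, fell. ID1 had 149.9 and 135 normalized counts at day 10, against 2202 and 2659 at day 0. ID3 had 251 and 305 normalized counts at day 10, against 3880 and 4356 at day 0. Both were low in both day 10 libraries. ID2 had 138 and 144 normalized counts at day 10, against 669.7 and 688 at day 0. ID4 had 8.26 and 5.06 normalized counts at day 10, against 64.3 and 65.9 at day 0. No library of day 10 reached a library of day 0 in any of them, and the log2 fold changes were −4.08 ± 0.19, −3.89 ± 0.21, −2.26 ± 0.25 and −3.14 ± 0.46 (limma adjusted p = 3.51e-08, 8.01e-08, 1.29e-05 and 1.21e-04). BAMBI, a decoy receptor for this family, had 1312 and 1273 normalized counts at day 10, against 152 and 106 at day 0, a log2 fold change of 3.34 ± 0.32. The ID and SMAD list of 9 held 5 that fell and 4 that rose. Of 28 FGF, PDGF, HGF and VEGF genes 11 rose and 11 fell, beside 32.5% and 31.3% of all genes tested. FGF5, a secreted growth factor, had 1015 and 1425 normalized counts at day 10, against 7660 and 8401 at day 0, a log2 fold change of −2.74 ± 0.15, and FGF1 had a log2 fold change of −3.39 ± 0.19. ANGPTL4, an angiopoietin-like protein, had 2650 and 2972 normalized counts at day 10, against 176 and 154 at day 0, a log2 fold change of 4.08 ± 0.14.

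Feedback and target genes of the Ras to ERK pathway mostly rose. Of 19 DUSP, Sprouty and SPRED genes, which feed back on the pathway, 12 rose and 2 fell. DUSP4 had 2810 and 2331 normalized counts at day 10, against 141 and 164 at day 0. DUSP6, a phosphatase of ERK, had 9771 and 10340 normalized counts at day 10, against 2062 and 2069 at day 0. DUSP4 and DUSP6 were higher in both day 10 libraries, with log2 fold changes of 4.06 ± 0.14 and 2.28 ± 0.12 (limma adjusted p = 7.54e-09 and 5.87e-08). Of 18 EGR, ETS and MYC regulators 13 rose and 3 fell; EGR2, an immediate early factor, had 349 and 333 normalized counts at day 10, against 2.76 and 3.34 at day 0, a log2 fold change of 6.41 ± 0.62. NRAS was lower in both day 10 libraries, with 1487 and 1438 normalized counts at day 10, against 3076 and 3307 at day 0, a log2 fold change of −1.12 ± 0.13. KLF2, a quiescence-associated factor, had 106 and 148 normalized counts at day 10, against 1410 and 1569 at day 0, a log2 fold change of −3.56 ± 0.22. In its list of 14 KLF genes 5 rose and 3 fell, beside 32.5% and 31.3% of all genes tested.

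Most genes of the secretory pathway rose. Of 28 endoplasmic reticulum and secretory genes 22 rose and 3 fell, with a median of 0.55; without replicate 2 of day 10 the 22 became 13, and the 3 became 0 without replicate 2 of day 0 or replicate 1 of day 10. HSPA5, the main chaperone of the compartment, had 155630 and 184100 normalized counts at day 10, against 29068 and 29845 at day 0, a log2 fold change of 2.52 ± 0.52. DNAJB9, its co-chaperone, had 2111 and 2770 normalized counts at day 10, against 298 and 342 at day 0. HERPUD1, a degradation adaptor, had 7831 and 15817 normalized counts at day 10, against 1586 and 1623 at day 0. DNAJB9 and HERPUD1 were higher in both day 10 libraries, with log2 fold changes of 2.92 ± 0.48 and 2.79 ± 0.68 (limma adjusted p = 0.00146 for HSPA5, 2.92e-04 for DNAJB9 and 0.00392 for HERPUD1). Of the 3, HERPUD1 had the day 10 libraries farthest apart, but neither overlapped with day 0. Of 25 ATF4 response genes 11 rose and 6 fell, beside 32.5% and 31.3% of all genes tested. DDIT3, the stress factor CHOP, had 5590 and 7557 normalized counts at day 10, against 476 and 478 at day 0. TRIB3, its pseudokinase target, had 8187 and 8832 normalized counts at day 10, against 889 and 872 at day 0. DDIT3 and TRIB3 were higher in both day 10 libraries, with log2 fold changes of 3.77 ± 0.68 and 3.27 ± 0.42. SLC7A11, a cystine transporter that ATF4 also drives, had 186 and 278 normalized counts at day 10, against 1207 and 1170 at day 0, a log2 fold change of −2.38 ± 0.20.

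Most lysosomal genes rose. Of 33 lysosome and autophagy genes 29 rose and 0 fell, with a median of 1.04. GPNMB, a lysosomal membrane glycoprotein, had 812 and 505 normalized counts at day 10, against 11.9 and 5.01 at day 0. CTSS, a cathepsin, had 3813 and 3540 normalized counts at day 10, against 198 and 221 at day 0. GLB1, which encodes the beta-galactosidase stained in senescent cells, had 5128 and 5062 normalized counts at day 10, against 2629 and 2456 at day 0. All were higher in both day 10 libraries, with log2 fold changes of 6.18 ± 0.41, 4.13 ± 0.39 and 1.00 ± 0.08 (limma adjusted p = 3.17e-07, 4.63e-06 and 8.83e-07). The CLEAR-type motif, TCACGTGA, known from lysosomal genes, stood in 4 of 22 promoters of the list (18.2%), against 1.88% of the genes tested and 1.04% of all promoters. It stood in 1.29% of the promoters of genes that rose by 4-fold or more and in 1.07% of those that fell as much, both below the share among the genes tested.

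The antioxidant and NRF2 list was split, with 10 of 27 higher, 12 lower and a median of −0.01. Its highest change was that of FTL. FTL, the light chain of the iron store ferritin, had 189480 and 152800 normalized counts at day 10, against 29350 and 28309 at day 0, a log2 fold change of 2.56 ± 0.24 (limma adjusted p = 4.23e-06). Its share of the library was 0.657 and 0.508% of reads at day 10, against 0.118 and 0.113% at day 0. The lowest change of the list was that of SLC7A11, a cystine transporter, with 186 and 278 normalized counts at day 10, against 1207 and 1170 at day 0, a log2 fold change of −2.38 ± 0.20. Of 11 metallothioneins and zinc transporters 9 rose and 1 fell, with a median of 1.82. MT2A had 60098 and 58393 normalized counts at day 10, against 10077 and 9538 at day 0. MT1X had 1481 and 1847 normalized counts at day 10, against 68.0 and 83.5 at day 0. MT2A and MT1X were higher in both day 10 libraries, with log2 fold changes of 2.60 ± 0.11 and 4.44 ± 0.26; reads of the near-identical metallothionein copies may have been split among them. Of 31 glycolysis and hypoxia genes 24 rose and 3 fell (1 without replicate 2 of day 0). CA9, a carbonic anhydrase and a hypoxia marker, had 538 and 404 normalized counts at day 10, against 19.3 and 21.7 at day 0. ALDOC, an aldolase, had 3607 and 3107 normalized counts at day 10, against 601 and 567 at day 0. CA9 and ALDOC were higher in both day 10 libraries, with log2 fold changes of 4.44 ± 0.26 and 2.52 ± 0.12. PKM, the last enzyme of glycolysis, was lower, with 105830 and 112260 normalized counts at day 10, against 141060 and 141780 at day 0, a log2 fold change of −0.38 ± 0.10.

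At the cell surface, 13 of 15 genes used as senescence surface markers rose and 0 fell (1 after quantile normalization). DPP4, a membrane peptidase, had 6205 and 7130 normalized counts at day 10, against 456 and 473 at day 0, a log2 fold change of 3.84 ± 0.13 (limma adjusted p = 6.94e-09). TNFRSF10D, a decoy receptor for the death ligand TRAIL, had 18485 and 25475 normalized counts at day 10, against 5232 and 5266 at day 0, a log2 fold change of 2.05 ± 0.20. Of 10 HLA class I and antigen presentation genes 9 rose and 1 fell, the fall becoming 0 without replicate 1 or 2 of day 0 or replicate 2 of day 10. HLA-B had 5545 and 4300 normalized counts at day 10, against 1329 and 1298 at day 0. B2M, the light chain of class I, had 37321 and 32154 normalized counts at day 10, against 20157 and 20230 at day 0. HLA-B and B2M were higher in both day 10 libraries, with log2 fold changes of 1.89 ± 0.13 and 0.78 ± 0.11. Reads of the polymorphic HLA genes may be assigned unevenly among them. Interferon-stimulated genes were split, with 13 of 31 higher and 9 lower; the 13 became 8 or 6 without replicate 1 or 2 of day 0 and 5 without replicate 1 of day 10, and the 9 became 5 without replicate 2 of day 10. These counts stand beside 32.5% higher and 31.3% lower over all genes tested. GBP1, a GTPase induced by interferon gamma, had 335 and 282 normalized counts at day 10, against 1107 and 1006 at day 0, a log2 fold change of −1.78 ± 0.14.

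Matrix genes changed in both directions. Of 25 collagen chains 13 rose and 7 fell. COL6A2, a chain of collagen VI, had 258190 and 236170 normalized counts at day 10, against 65787 and 57756 at day 0. COL10A1, best known from hypertrophic cartilage, had 771 and 962 normalized counts at day 10, against 15.6 and 21.7 at day 0. COL6A2 and COL10A1 were higher in both day 10 libraries, with log2 fold changes of 2.00 ± 0.14 and 5.47 ± 0.23 (limma adjusted p = 5.33e-07 and 1.64e-08). COL1A1 had 71414 and 61450 normalized counts at day 10, against 126360 and 98907 at day 0. It was not called by limma (log2 fold change −0.75 ± 0.31, adjusted p = 0.053), although edgeR and the limma fit of the compared groups alone called it lower (adjusted p = 0.0446 and 0.00235). It was also called after quantile normalization (log2 fold change −1.22, limma adjusted p = 0.00484) and without replicate 1 or 2 of shIL1R day 10 (limma adjusted p = 0.000853 and 0.000811). COL3A1, a fibrillar collagen, had 6743 and 5467 normalized counts at day 10, against 16427 and 12911 at day 0, and its call (log2 fold change −1.26 ± 0.43, limma adjusted p = 0.023) was lost without replicate 1 of day 0 (0.118), replicate 1 of day 10 (0.053) or replicate 2 of day 10 (0.115). POSTN, periostin, had 2954 and 3105 normalized counts at day 10, against 159 and 152 at day 0, a log2 fold change of 4.28 ± 0.09 (limma adjusted p = 3.64e-10). ELN, elastin, had 7.08 and 5.06 normalized counts at day 10, against 272 and 247 at day 0, a log2 fold change of −5.22 ± 0.42. POSTN was high and ELN low in both day 10 libraries, without overlap.

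Of 22 proteoglycan and hyaluronan genes 11 fell and 5 rose. CEMIP, which degrades hyaluronan, had 231 and 253 normalized counts at day 10, against 5398 and 3922 at day 0. BGN, biglycan, had 3570 and 3331 normalized counts at day 10, against 605 and 505 at day 0. CEMIP was lower and BGN higher in both day 10 libraries, with log2 fold changes of −4.24 ± 0.38 and 2.64 ± 0.21. Of 20 YAP and TAZ-responsive genes 12 fell and 3 rose, with a median of −0.69. CYR61, a matricellular target of YAP, had 5164 and 7530 normalized counts at day 10, against 18974 and 17433 at day 0. AXL, a receptor kinase, had 8745 and 10204 normalized counts at day 10, against 29424 and 28187 at day 0. CYR61 and AXL were lower in both day 10 libraries, with log2 fold changes of −1.54 ± 0.27 and −1.61 ± 0.12. ANKRD1, another classic target, went the other way, with 299.7 and 713 normalized counts at day 10, against 54.2 and 46.7 at day 0, a log2 fold change of 3.17 ± 0.56. None of the 3 overlapped between the days. TAGLN, an actin-binding protein of contractile cells, had 4318 and 5326 normalized counts at day 10, against 16573 and 15052 at day 0, a log2 fold change of −1.72 ± 0.15. Of 25 integrins and cadherins 10 rose and 8 fell, beside 32.5% and 31.3% of all genes tested. ITGA11, a collagen receptor subunit, had 4424 and 4198 normalized counts at day 10, against 603 and 476 at day 0. ITGA4, a partner of beta 1 integrin, had 283 and 319 normalized counts at day 10, against 2563 and 2650 at day 0. ITGA11 was higher and ITGA4 lower in both day 10 libraries, with log2 fold changes of 3.01 ± 0.18 and −3.11 ± 0.14.

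Of the genes of regional identity, more fell than rose in shScr cells. Of 23 lung fibroblast regulators 10 fell and 4 rose (2 without replicate 2 of day 0 or replicate 1 of day 10). Of 28 HOX genes listed 12 were tested, of which 7 fell and 1 rose. Over all genes tested 31.3% fell and 32.5% rose. In the shIL1R cells described below, 5 of the lung regulators fell and 8 rose, while 2 HOX genes fell and 1 rose. TCF21, a mesenchymal factor, had 223 and 296 normalized counts at day 10, against 1097 and 1016 at day 0. HOXB3, a positional factor, had 763 and 689 normalized counts at day 10, against 1991 and 1979 at day 0. TCF21 and HOXB3 were lower in both day 10 libraries, with log2 fold changes of −2.04 ± 0.21 and −1.45 ± 0.17. HOXB8 rose, with 62.5 and 56.7 normalized counts at day 10, against 21.1 and 14.2 at day 0, a log2 fold change of 1.72 ± 0.37. Both HOX genes showed no overlap between the days. DCN, decorin, a fibroblast marker, had 1769 and 1361 normalized counts at day 10, against 7877 and 6820 at day 0, a log2 fold change of −2.24 ± 0.20. FN1, fibronectin, had 433060 and 491240 normalized counts at day 10, against 143340 and 159390 at day 0, a log2 fold change of 1.61 ± 0.17. Over the 15 fibroblast markers 7 fell (4 without replicate 1 of day 0) and 3 rose. CYP26B1, which degrades retinoic acid, had 987 and 735 normalized counts at day 10, against 7.35 and 2.50 at day 0, a log2 fold change of 7.30 ± 0.40, in a list of 12 retinoic acid genes with 5 higher and 0 lower (1 after quantile normalization).

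**Figure D3:**
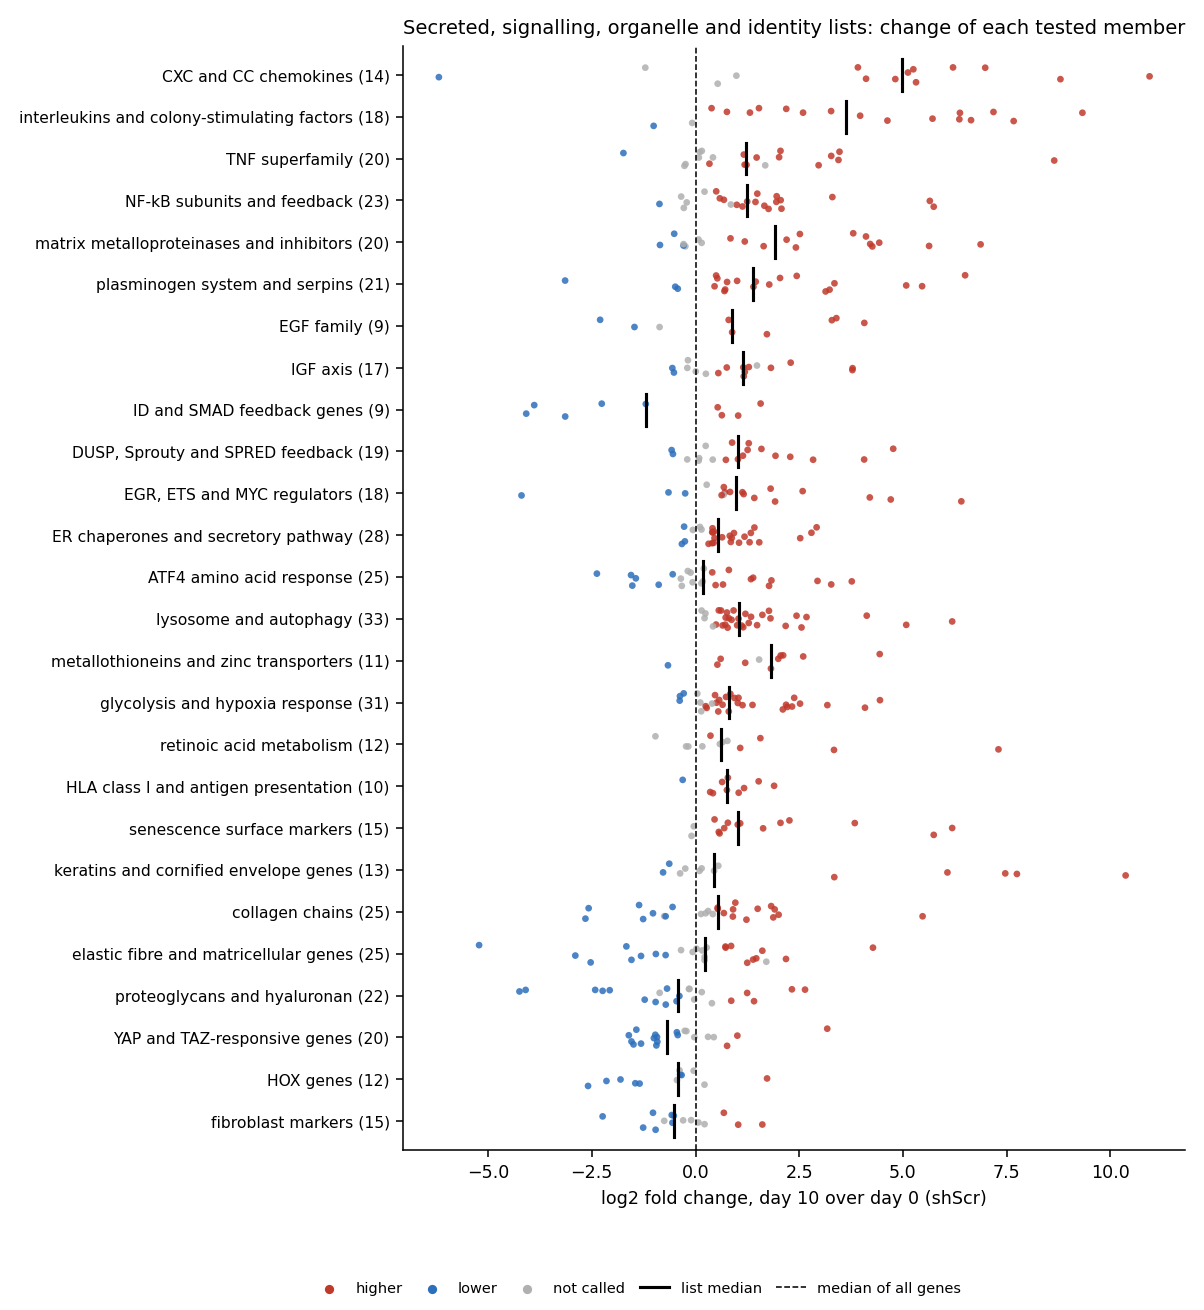
Log2 fold change, day 10 over day 0 in shScr cells (x axis), of each tested member (points) of 26 lists, with the number tested in brackets; red members rose, blue fell and grey were not called, black bars are list medians and the dashed line is the median of all genes. The medians lie at 4.97 for chemokines and 3.62 for interleukins, and no lysosomal member is blue.

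Some of the largest rises were in genes not usually found in fibroblasts. CST1, a secreted cystatin that inhibits cysteine proteases, had 12160 and 10052 normalized counts at day 10, against 6.43 and 5.01 at day 0. CST4, a further secreted cystatin, had 2452 and 2617 normalized counts at day 10, against 2.76 and 1.67 at day 0. Both were near 0 at day 0 and high in both day 10 libraries, with log2 fold changes of 10.69 ± 0.29 and 9.64 ± 0.25 (limma adjusted p = 1.74e-09 and 1.44e-09). The close relative CST2 had 657 and 493 normalized counts at day 10, against 0.919 and 0 at day 0, where the day 0 level rests on 1 read. Reads shared by these near-identical cystatins may have been split among them. LCE1F, a protein of the cornified envelope of skin, had 11272 and 14575 normalized counts at day 10, against 10.1 and 7.51 at day 0, a log2 fold change of 10.37 ± 0.50 (limma adjusted p = 3.71e-08). KRT17, a stress keratin of epidermis, had 201 and 222 normalized counts at day 10, against 1.84 and 2.50 at day 0, a log2 fold change of 6.07 ± 0.54. Of 25 keratin and cornified genes listed 13 were tested, of which 5 rose and 2 fell, beside 32.5% and 31.3% of all genes tested. KRT5, the basal epidermal keratin, was at 0 in the 4 libraries.

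Markers of other cell types moved in part. The summed level of the 14 leukocyte markers was 9135 and 7507 at day 10, against 3020 and 3293 at day 0, nearly all of it CD68, a lysosomal glycoprotein, with 8920 and 7306 normalized counts at day 10, against 2860 and 3147 at day 0. Of the 4 tested 3 rose and 1 fell, with a median of 2.02, beside 32.5% and 31.3% of all genes tested. Among the libraries compared, LAPTM5 and FCER1G reached 10 normalized counts only at day 10, as did KDR of the endothelial markers below. The filter thus favours members that rose, and these counts and this median leave out the markers not tested. LAPTM5, a lysosomal membrane protein of blood cells, had 142 and 119.5 normalized counts at day 10, against 1.84 and 0 at day 0, where the day 0 level rests on 2 reads. FCER1G, a signalling chain of Fc receptors, rose, with 17.7 and 19.2 normalized counts at day 10, against 2.76 and 1.67 at day 0; it was named after its values were seen. CORO1A, an actin-binding protein, fell, with 33.0 and 42.5 normalized counts at day 10, against 146 and 138 at day 0, a log2 fold change of −1.89 ± 0.36. LAPTM5 and FCER1G were higher, and CORO1A lower, in both day 10 libraries. PTPRC, the pan-leukocyte marker, had 1.18 and 3.04 normalized counts at day 10, against 0 and 0 at day 0. The summed level of the 12 endothelial markers was 2747 and 2576 at day 10, against 2068 and 1921 at day 0. Of 8 tested 5 rose and 1 fell (0 without replicate 1 of day 0 or replicate 2 of day 10), among them TIE1, an endothelial receptor kinase, with 539 and 403 normalized counts at day 10, against 32.2 and 32.5 at day 0. KDR, a VEGF receptor, also rose, with 96.8 and 51.6 normalized counts at day 10, against 2.76 and 1.67 at day 0, while CDH5 stayed at 0. The 1 that fell was TEK, with 1182 and 1048 normalized counts at day 10, against 1775 and 1644 at day 0. TEK held most of the endothelial sum at day 0, and it was named after its values were seen. The part of other cell types in the results was not tested. The sum of the 12 epithelial markers was 2420 and 2392 at day 10, against 3157 and 3388 at day 0. That of the 10 smooth muscle and pericyte markers was 17660 and 19566 at day 10, against 25055 and 23553 at day 0. Of these 10 markers 5 fell and 1 rose.

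By the rule of under 10 normalized counts in both libraries of 1 day and 100 or more in both of the other, 56 genes were switched on at day 10 and 11 were switched off. CST1, CCL3 and CST4 reached the highest levels among the genes switched on. CCL3, which attracts monocytes, had 5949 and 10614 normalized counts at day 10, against 0.919 and 7.51 at day 0, a log2 fold change of 10.94 ± 1.06, and its reads may be shared with near-identical CCL3-like copies. FOXQ1, a forkhead factor, had 468 and 717 normalized counts at day 10, against 1.84 and 5.01 at day 0. CDCA7, a chromatin factor that MYC and E2F induce, had 2.36 and 2.03 normalized counts at day 10, against 435 and 411 at day 0, the largest fall of all genes tested, with a log2 fold change of −7.06 ± 0.44 (limma adjusted p = 2.07e-07). LZTS1 had 8.26 and 9.11 normalized counts at day 10, against 321 and 266 at day 0. MND1, a meiotic recombination cofactor, had 8.26 and 7.09 normalized counts at day 10, against 190.2 and 194 at day 0. The genes switched off also include POLE2, ELN and E2F8, described above.

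**Figure D4:**
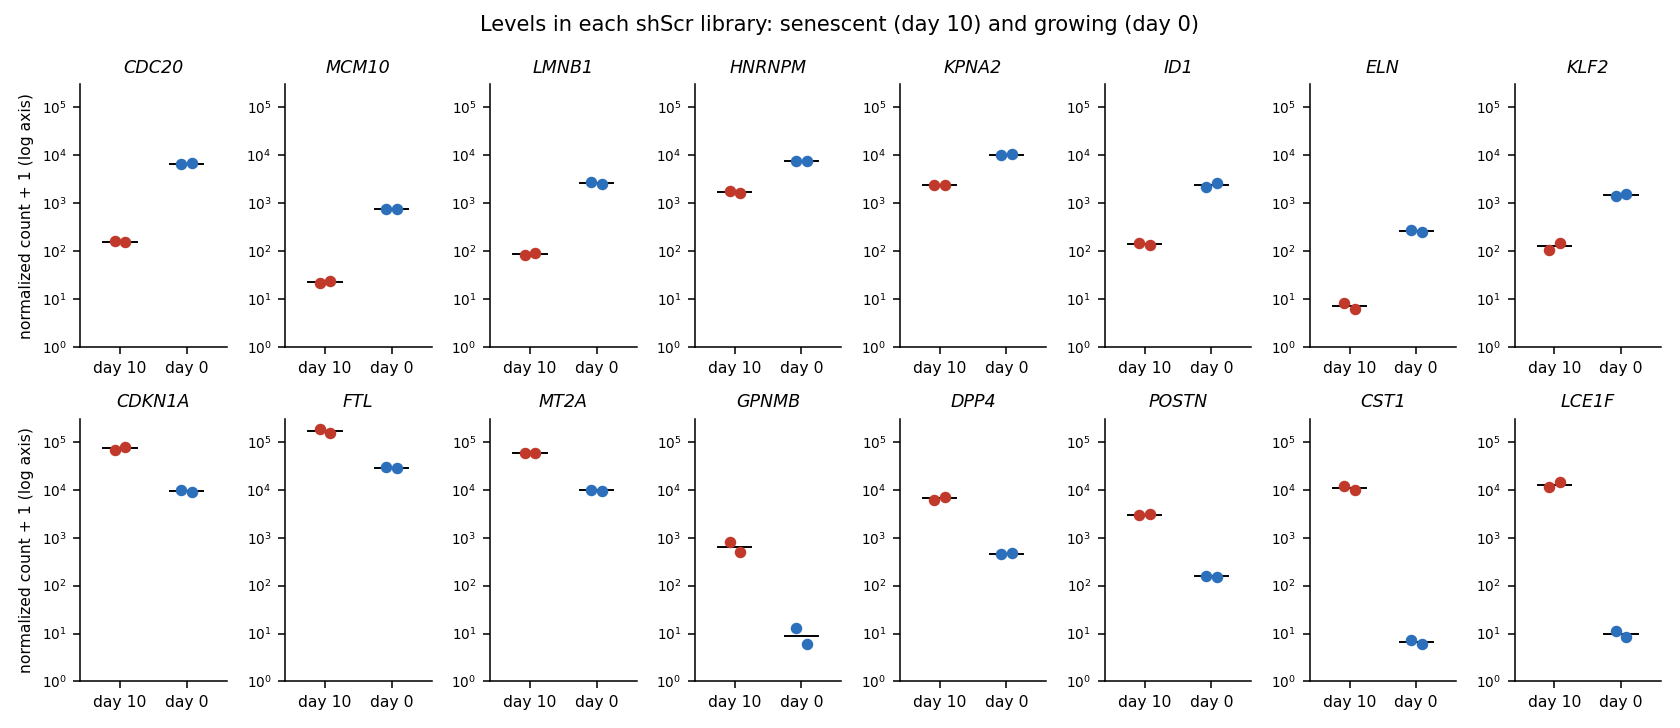
Normalized count plus 1 (log axes) of 16 genes in each shScr library, day 10 in red on the left and day 0 in blue on the right of each panel; points are libraries (2 per day) and bars their geometric means. The upper 8 genes lie lower and the lower 8 higher in both day 10 libraries, and the 2 libraries of a day lie close together beside the distance between the days.

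The 10 genes with the most reads at day 10 took 10.1 and 9.96% of reads at day 10, while the 10 with the most reads at day 0, not all of them the same genes, took 7.58 and 7.76% at day 0. RNA45S5, the ribosomal RNA precursor, took 2.52 and 2.51% of reads at day 10, against 1.34 and 1.42% at day 0. FN1 took 1.50 and 1.64% of reads at day 10, against 0.576 and 0.634% at day 0. MMP1, interstitial collagenase, took 0.900 and 0.888% of reads at day 10, against 0.0445 and 0.0537% at day 0, the day 10 shares having exact 95% binomial intervals of 0.896 to 0.904% and 0.884 to 0.891% (counting error only). All 3 had larger shares in both day 10 libraries. COL6A1, a further chain of collagen VI, took 0.664 and 0.634% of reads at day 10, against 0.233 and 0.200% at day 0. ACTB, cytoplasmic actin, took 0.534 and 0.595% of reads at day 10, against 1.00 and 0.952% at day 0. The 3 matrix and protease genes FN1, MMP1 and COL6A1 thus held larger, and ACTB a smaller, share of both day 10 libraries. As a contrast, the shares of the proteoglycan list overlapped, at 0.358 and 0.412% of reads at day 10, against 0.375 and 0.383% at day 0. VIM, vimentin, had 194420 and 192430 normalized counts at day 10, against 183270 and 185430 at day 0. EEF1A1, an elongation factor, had 218970 and 207130 normalized counts at day 10, against 205000 and 217830 at day 0. Neither was called in the main fit. After quantile normalization both were called lower, with log2 fold changes of −0.284 for VIM and −0.354 for EEF1A1 (limma adjusted p = 0.0248 and 0.00482). As shares, VIM took 0.6742 and 0.6403% of reads at day 10, against 0.7365 and 0.7375% at day 0. EEF1A1 took 0.7593 and 0.6893% at day 10, against 0.8238 and 0.8664% at day 0.

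The day 4 comparison shares the day 0 libraries, so its values are set beside those of day 10 without a test between them. CDKN1A had 10016 and 8866 normalized counts on day 0, 35895 and 36085 on day 4, then 69197 and 79731 on day 10. CCNB1 had 7527 and 7981 normalized counts on day 0, 1971 and 1884 on day 4, then 296 and 309 on day 10. HNRNPM had 7664 and 7507 normalized counts on day 0, 4056 and 4265 on day 4, then 1770 and 1648 on day 10. Levels were stepwise higher for CDKN1A and stepwise lower for CCNB1 and HNRNPM. CST1 had 6.43 and 5.01 normalized counts on day 0, 288 and 364 on day 4, then 12160 and 10052 on day 10. GLB1 had 2629 and 2456 normalized counts on day 0, 3129 and 2895 on day 4, then 5128 and 5062 on day 10. In each of the 5 genes the day 4 libraries lay between those of day 0 and day 10.

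The same days in cells with a hairpin that knocks down the interleukin-1 receptor (shIL1R), which the labels do not identify further, give a second comparison that shares no library with this one. IL1R1, which encodes the receptor, was measured in shIL1R cells at 295 and 279.9 at day 10, against 731 and 378 at day 0, in normalized counts. In shScr cells IL1R1 had 1580 and 1240 normalized counts at day 10, against 1509 and 1552 at day 0. The shIL1R day 10 libraries lay farther from each other than those of any other group, their differences being 57.3 times counting error by chi-square per degree of freedom, compared with 8.24 to 25.5 times in the other 5 groups. In shIL1R cells 4183 genes rose (30.0%) and 4213 fell (30.3%) at day 10 against day 0. Called in both and in the same direction were 6948 genes, 78.3% of the calls in shScr cells and 82.8% of those in shIL1R cells, while 44 were called in opposite directions. A test of the difference between the 2 responses called 336 genes (2.41%), 214 with a more positive change in shScr cells and 122 with a more negative one. The number moved with single libraries. It was 2123 without replicate 1 of shIL1R day 10, and 42 and 72 without replicate 2 and 1 of shScr day 0. It was 49 without replicate 2 of shScr day 10, and 44 and 154 without replicate 2 and 1 of shIL1R day 0.

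The cell cycle lists fell in both genotypes. All 19 origin licensing genes, all 29 kinetochore genes and all 25 spindle genes fell in shIL1R cells too, and the difference between genotypes was called for 1, 0 and 0 of them. For KPNA2 the log2 fold change was −2.10 in shScr and −2.19 in shIL1R cells (difference not called, limma adjusted p = 0.68), and for POSTN 4.28 and 4.35 (limma adjusted p = 0.798), which does not show that these responses were the same. Among secreted genes the difference was called, with the more positive change in shScr cells, for 6 of 14 chemokines and 5 of 18 interleukins and colony-stimulating factors, against 2.41% of all genes. Members silent at day 0 passed the filter only through libraries where they were high, and the lists were chosen with earlier results known. These counts are thus a description and no test of the lists. CXCL5 had a log2 fold change of 6.98 in shScr and −0.64 in shIL1R cells (limma adjusted p = 5.07e-04 for the difference). C3, the central complement protein, had 3168 and 3454 normalized counts at day 10, against 343 and 259.5 at day 0 in shScr cells and 516 and 92.6 at day 10, against 1431 and 1963 at day 0 in shIL1R cells (limma adjusted p = 0.00353 for the difference). SOD2, the mitochondrial superoxide dismutase, had 11317 and 12730 normalized counts at day 10, against 3185 and 3040 at day 0 in shScr cells and 3705 and 2931 at day 10, against 3709 and 3840 at day 0 in shIL1R cells (limma adjusted p = 5.07e-04 for the difference). Both genes were higher at day 10 in shScr cells, whereas in shIL1R cells both day 10 libraries lay below both day 0 libraries, by far for C3 and by little for SOD2. The calls of the difference for CXCL5, C3 and SOD2 held in 12 of 12 fits with a library left out. Among the genes that fell, the ID1 change was −4.08 in shScr and −2.12 in shIL1R cells (limma adjusted p = 0.00782 for the difference). TERT changed by −1.26 in shScr and −0.35 in shIL1R cells (limma adjusted p = 0.0156 for the difference). The ID1 call was lost without replicate 2 of shScr day 0 or day 10 (highest adjusted p 0.0521). The TERT call was lost without either replicate of shScr day 0, replicate 2 of shIL1R day 0 or replicate 2 of shScr day 10 (highest adjusted p 0.0911).

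**Figure D5:**
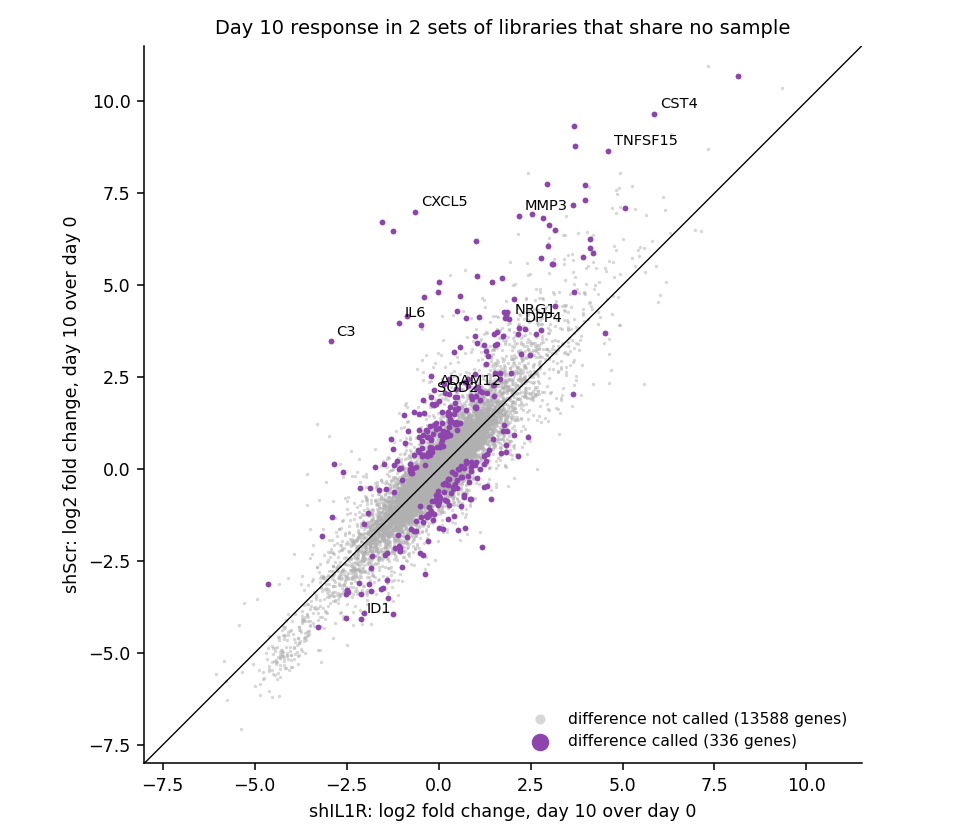
Log2 fold change, day 10 over day 0, in shScr cells (y axis) against the same in shIL1R cells (x axis), with a point per gene and the line of equal change; purple points are the 336 genes with a called difference. Most grey points follow the line, and purple points such as CXCL5, IL6 and C3 lie far above it.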

How the data were processed

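The authors deposited normalized counts per gene for 12 RNA-seq libraries in 6 groups of 2; TopHat, HTSeq, DESeq2 and hg19 are named in the submitters' processing notes, with no versions, while neither the gene annotation nor whether counting used strand is given in the sources used here. Antisense partners and near-identical copies may therefore share reads. Each deposited value was a whole multiple of 1 read within 0.001 (100% of values in each library), which returned totals of 24140324 to 30127727 reads. These recovered reads gave the depth, the 3-read floor for genes at 0 and the count-based alternatives. Values in the deposited table have the form of a signal (reads over a library factor), so the main test was limma 3.58.1 (trend, R 4.3.3) on log2(normalized count + 1).

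The fit held 6 group means over all 12 libraries (6 residual and 4.98 prior degrees of freedom) and 13924 of 27106 genes, those with 10 or more normalized counts in at least 2 libraries; 6344 genes were at 0 throughout. P-values were adjusted after Benjamini and Hochberg, and 0.05 was the threshold. Fold changes of low genes are understated by the pseudocount of 1. The spread between the 2 libraries of a day was 15.7 times counting error at day 10 and 8.24 times at day 0 (chi-square per degree of freedom).

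The 73 gene lists were described by counts and medians, without set tests; medians were the same with genes at 0 set to their bound. The members and lists were chosen with earlier results of these data known. Named genes were a fixed set of textbook genes, up to 4 called members per list with the largest change and a mean of 50 or more, the 20 largest changes per direction, switched genes and the 10 with the most reads; others are marked in the text. Results for a few listed genes are not reported here. Promoters, from RefSeq (GRCh38.p14), used the first listed start per symbol. The scripts were tested on simulated data. Alternatives were recovered reads in edgeR 4.0.16 or DESeq2 1.42.0, TMM and quantile scaling, other pseudocounts and filters, a robust fit, the compared groups alone, a replicate block, fits with any 1 library left out, and calls limited to 2-fold changes.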

Additional observations from a re-analysis of the deposited data

Results flagged for a closer look

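Not counting TEK, the report names 169 tested genes. Of these, 26 had day 10 responses that differed between the genotypes by the test of the difference itself in limma (adjusted p below 0.05). Over all genes tested the share was 2.41%. Many named genes were chosen for a large change in shScr cells, and the same libraries enter the difference. The count of 26 therefore cannot be weighed against that share. The values that follow are differences in log2 fold change, shScr minus shIL1R, so a positive one means a more positive change from day 0 to day 10 in shScr cells.

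In 9 of these genes the difference was called in all 12 fits with a library left out. It was 7.62 for CXCL5, 6.40 for C3, 5.05 for IL6, 4.68 for MMP3, 4.05 for TNFSF15, 3.78 for CST4, 2.16 for NRG1, 2.14 for SOD2 and 1.66 for DPP4. These are cytokines and growth factors (CXCL5, IL6, TNFSF15, NRG1), the complement protein C3, the protease MMP3, the cystatin CST4, the mitochondrial enzyme SOD2 and the surface peptidase DPP4.

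In the other genes at least 1 library left out ended the call, in 3 to 10 of the 12 fits for all of them except ID1, in which 2 fits did. The more positive change was in shScr cells for 13 genes, with differences of 5.65 for CSF3, 5.19 for CXCL8, 5.07 for CCL20, 3.32 for CYP26B1, 3.02 for CTSS, 2.95 for ICAM1, 2.54 for CST1, 1.80 for EREG, 1.51 for BMP2, 1.26 for MMP1, 1.01 for PAPPA, 0.81 for IGFBP4 and 0.77 for DUSP6. It was more negative in shScr cells for 4 genes, with −1.29 for FGF1, −1.96 for ID1, −0.96 for ITGA4 and −0.92 for TERT. CCL20 was at 0 in all day 0 libraries of both genotypes, so its difference depends on the pseudocount of 1 and is no measured fold. No outlier test was run, since each group held 2 libraries.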

How the results depend on the processing

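The day 10 against day 0 counts in shScr cells stayed within 1.5 times of 8879 under every alternative run except the 2-fold threshold, which left 3958 genes, 2033 higher and 1925 lower, and 3450 in shIL1R cells. With each of the 12 libraries left out, the total was 7282 to 9465, with 3683 to 4793 higher and 3599 to 4672 lower, and 6860 to 8539 in shIL1R cells. On recovered reads edgeR called 8920 genes and DESeq2 8501. The number of genes with a called difference between genotypes, 336, was the least steady: 216 with no filter, 156 in the fit of the compared groups alone, 802 with DESeq2, 202 with the 2-fold threshold and 42 to 2123 with a library left out; the cause was not tested. Of the 335 genes that the naming rule allows, 320 kept their call and direction under all 23 alternatives, 9 lost a call and 4 gained one under at least 1. The remaining 2, EEF1A1 and VIM, were uncalled in the main fit and changed direction after quantile normalization. There they were called lower, at −0.354 and −0.284 on the log2 scale. Of 146 list counts, 107 stayed within 1.5 times throughout. The median log2 fold change of all genes lay between −0.0156 and 0.0101 across the scalings. Each of these scalings tends to centre the genes near 0, so these values cannot show a shift shared by most genes.

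The labels do not say whether same-numbered libraries share more than a number. Their deviations from the group means had correlations of −0.102 to 0.231 over the 15 pairs of groups, and 0.125 between shScr day 10 and day 0. With 2 libraries per group, such values cannot settle whether these libraries are paired. With the replicate block the counts were 8861 in all, 4511 higher and 4350 lower, 8365 in shIL1R cells and 312 for the difference. With 2 libraries per group the standard errors lean on the spread of the other groups, and genes at 0 at day 0 have folds only as lower bounds set by depth.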
